A study of Homo sapiens with 5 samples.

Results

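Polycomb group genes encode the subunits, partners and antagonists of a pair of chromatin complexes. The list held 35 genes, chosen by gene name, with earlier results of these data known. Of these, 32 had at least 1 named probe on the array, with 54 probes in all. The other 3, CBX8, RNF2 and BAP1, had no named probe and were not analysed here. All 32 genes were above background (detection p-value under 0.01) on at least 1 array, and 27 of them were above background on all 5 arrays. Across the whole series 20045 genes had a named probe, and 13002 of those were above background on at least 1 array.

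Polycomb repressive complex 2 (PRC2) methylates lysine 27 of histone H3 through EZH2 or its paralogue EZH1. Polycomb repressive complex 1 (PRC1) ubiquitinates histone H2A through RING1 or RNF2 paired with a PCGF protein, and it compacts chromatin. In pluripotent stem cells these marks lie over silent genes of later lineages, and the make-up of both complexes is known to shift as cells differentiate.

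The study followed human embryonic stem cells of the established line H9 as they differentiated toward cells resembling corneal epithelium. The undifferentiated cells were sampled at week 0 and the differentiating cells at weeks 2, 4, 6 and 8. All were kept in E6, a defined medium that was changed daily. Every week was 1 Illumina bead array from a non-replicate sample, so no test was possible and no value has an error. Each value below is a level or a difference on the log2 scale after background correction and quantile normalization. A gene was called higher or lower than week 0 where the arrays differed by 2-fold or more (1 in log2 terms), provided that the array with the stronger signal exceeded background. Levels of different genes come from different probes and were not compared with each other.

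The marker genes placed these arrays as follows. Of 9 pluripotency markers with a named probe, 8 were above background at week 0 and 5 at week 8. Of 11 markers of stratified epithelium the counts were 4 and 10, of 9 stromal markers 5 and 9, of 8 neuronal markers 6 and 8, of 5 pigment cell markers 1 and 5, and of 7 lens markers 1 and 5. Such counts do not show the level. Of 8 measured pluripotency markers 7 were called lower at week 8 and none higher, with a median difference of -5.19. Of 8 neuronal markers 6 were called higher at week 8 and none lower, with a median of 2.18. Among all measured genes 16.8% were called higher at week 8 and 15.4% lower. Of 7 markers of corneal epithelium, 2 were above background at week 0 and 3 at week 8. KRT3 and KRT12, the defining keratins of corneal epithelium, were below background on all 5 arrays. Of the same list, PAX6 was at least 46.4-fold higher at week 8, TKT was 2.39-fold lower and CLU was not called. Markers of several cell types were thus above background together at week 0 as well as at week 8. The marker counts therefore do not show when a mixture of cell types arose. In bulk RNA, fewer cells of a type and less RNA per cell cannot be told apart. The part of such mixtures in the results below was not tested.

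Over the 8 weeks single Polycomb genes differed from week 0 in both directions while the group's median stayed near 0. BMI1, YAF2 and ASXL1 were called higher at all 4 later weeks, and PHC1 and KDM6B were called lower at all 4. CBX2, PCGF6, MTF2 and EZH1 were called lower, and CBX6 higher, at weeks 6 or 8 and not before. In all, 16 of the 32 genes were called at 1 or more weeks, 7 of them higher and 9 lower, and none was called both ways. Of the 13002 genes above background on at least 1 array, 42.9% were called at 1 or more weeks, 23.1% higher and 20.2% lower. The median difference of the measured members was 0.09, 0.22, 0.08 and 0.12 at weeks 2, 4, 6 and 8, beside medians over all measured genes of -0.02, -0.05, -0.04 and -0.05.

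**Figure D1:**
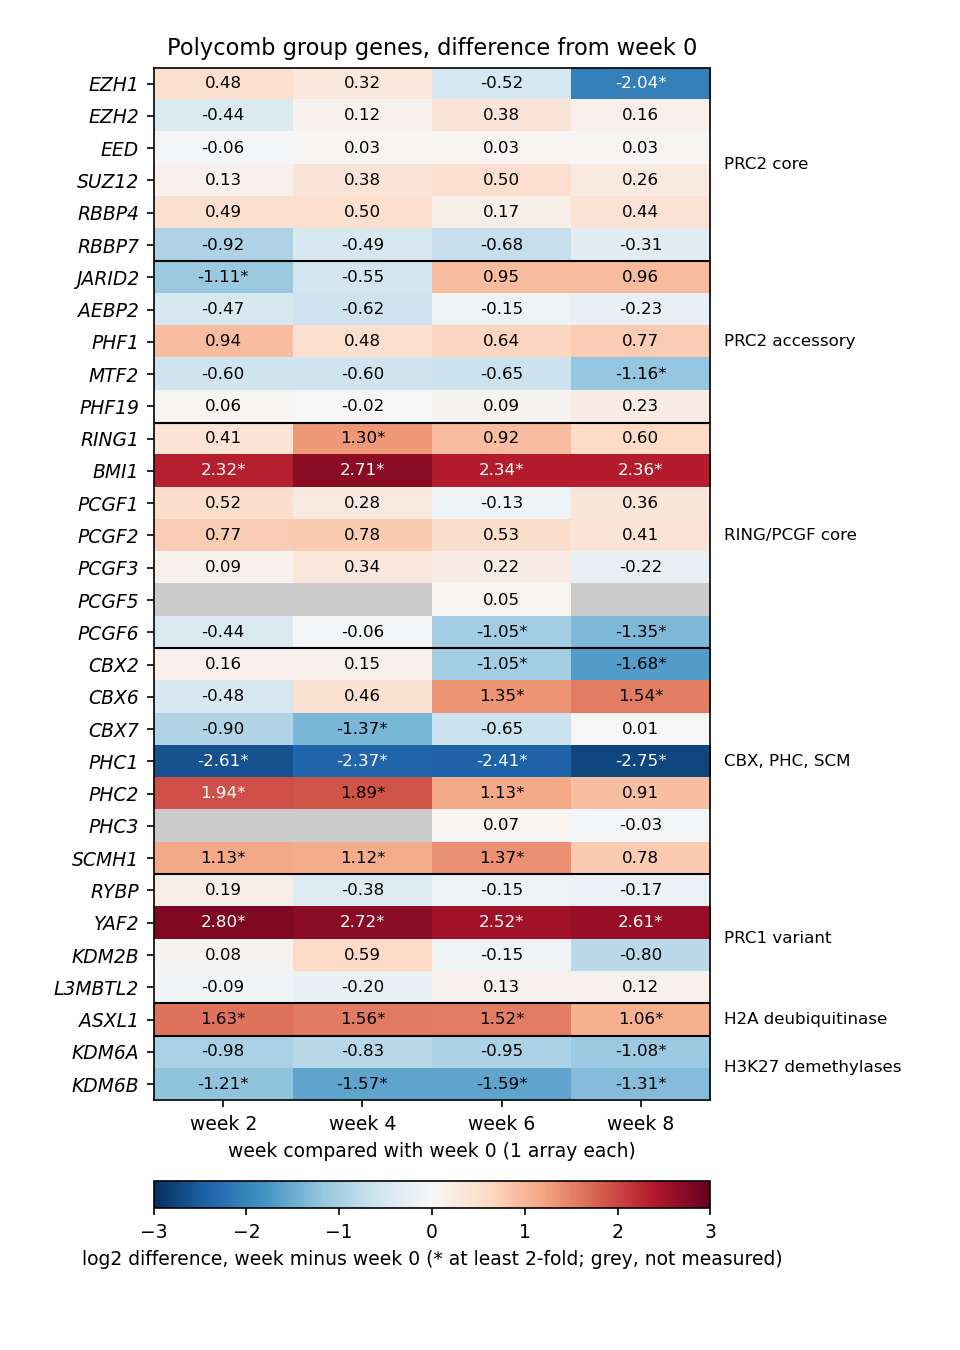
Log2 difference from week 0 (colour and number) for the 32 genes with a named probe, in rows grouped by role, at weeks 2, 4, 6 and 8 in columns, 1 array each. Stars mark calls of at least 2-fold and grey cells were below background on both arrays; BMI1, YAF2 and ASXL1 are red and PHC1 and KDM6B blue at every week.

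At week 2, 5 of 30 measured members were called higher and 3 lower, which is 16.7% and 10%. Of all measured genes 10.7% were called higher and 9.29% lower. At week 4 there were 6 members higher and 3 lower of 30, beside 14% and 11.5% of all genes. At week 6 there were 6 higher and 4 lower of 32, beside 15.8% and 14.1%. At week 8 there were 4 higher and 7 lower of 31, or 12.9% and 22.6%, beside 16.8% and 15.4%. With so few members each of these shares lay within a few genes of the background. The split also depended on scaling: with the arrays scaled to a common 75th percentile, 5 members were higher and 5 lower at week 2, 4 and 5 at week 4, 5 and 7 at week 6, and 3 and 8 at week 8. With that scaling 10%, 12%, 13.3% and 14.8% of all measured genes were higher at weeks 2, 4, 6 and 8. The shares lower were 11.6%, 16.9%, 20.4% and 20.5%.

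**Figure D2:**
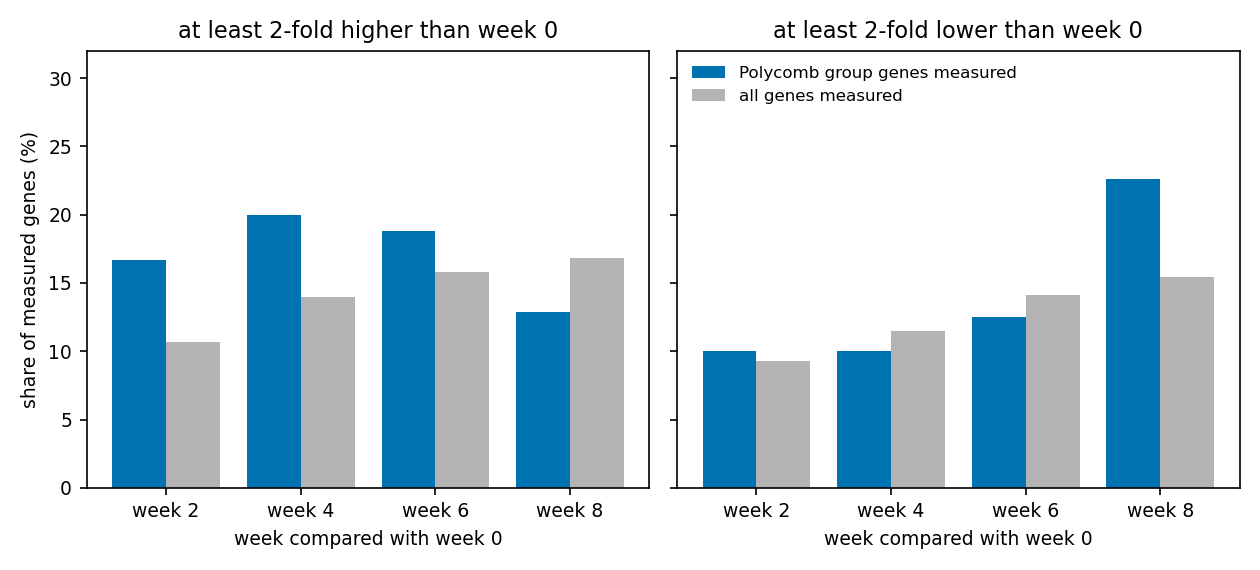
Share of measured genes, in percent, at least 2-fold higher (left) or lower (right) than week 0 at each later week, for the Polycomb group genes (blue) and for all measured genes (grey). The share of lower members is 10% at weeks 2 and 4, 12.5% at week 6 and 22.6% at week 8, against 15.4% of all genes at week 8.

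The catalytic subunits of PRC2 came first. EZH1, the paralogue known to prevail in cells that no longer divide, had levels of 7.91, 8.39, 8.22, 7.39 and 5.86 at weeks 0, 2, 4, 6 and 8. It stayed near its starting level for 4 weeks and was 4.12-fold lower at week 8, where it lay just above the lowest level counted as above background (5.46). Its signal before any correction went from 359 at week 0 to 181 at week 8. Without background correction the week 8 difference was -0.999, which falls just short of a call, and on the authors' processed values it was -0.91.

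EZH2, the main methyltransferase of dividing cells, gave different answers on its 3 probes, all of which were above background on every array. The brightest, ILMN_2364529, had levels of 12.85, 12.41, 12.97, 13.23 and 13.01, and its differences from week 0 lay between -0.44 and 0.38. The probe ILMN_1708105 had levels of 8.60, 8.89, 8.50, 7.14 and 6.75, a difference of -1.85 at week 8. The probe ILMN_1652913 had levels of 8.66, 9.05, 9.18, 8.23 and 7.56, a difference of -1.11 at week 8. The dimmer pair was thus lower at weeks 6 and 8 while the brightest probe was not. The platform annotation assigns ILMN_2364529 and ILMN_1708105 to the same RefSeq transcript, so the annotated transcript does not separate the probe that stayed from those that went down. Without background correction the differences of the dimmer pair were -1.14 and -0.76, and with an offset of 50 that of ILMN_1652913 was -0.98. Cell division genes driven by E2F factors, which are known to include EZH2, were read on the same arrays. Of 29 measured members of that list 24 (82.8%) were called lower at week 8 and none higher, with a median of -2.29. Among all measured genes 15.4% were called lower. The largest differences of the list were those of MCM4 (-3.58) and MCM5 (-3.47), helicase subunits of DNA replication, BUB1 (-3.14), a mitotic checkpoint kinase, RRM2 (-2.98), which makes deoxynucleotides, AURKB (-2.87), a mitotic kinase, and CCNA2 (-2.82), a cyclin. This list does not show which EZH2 probe reads the gene correctly. The part of fewer dividing cells in the EZH2 values was not tested.

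**Figure D3:**
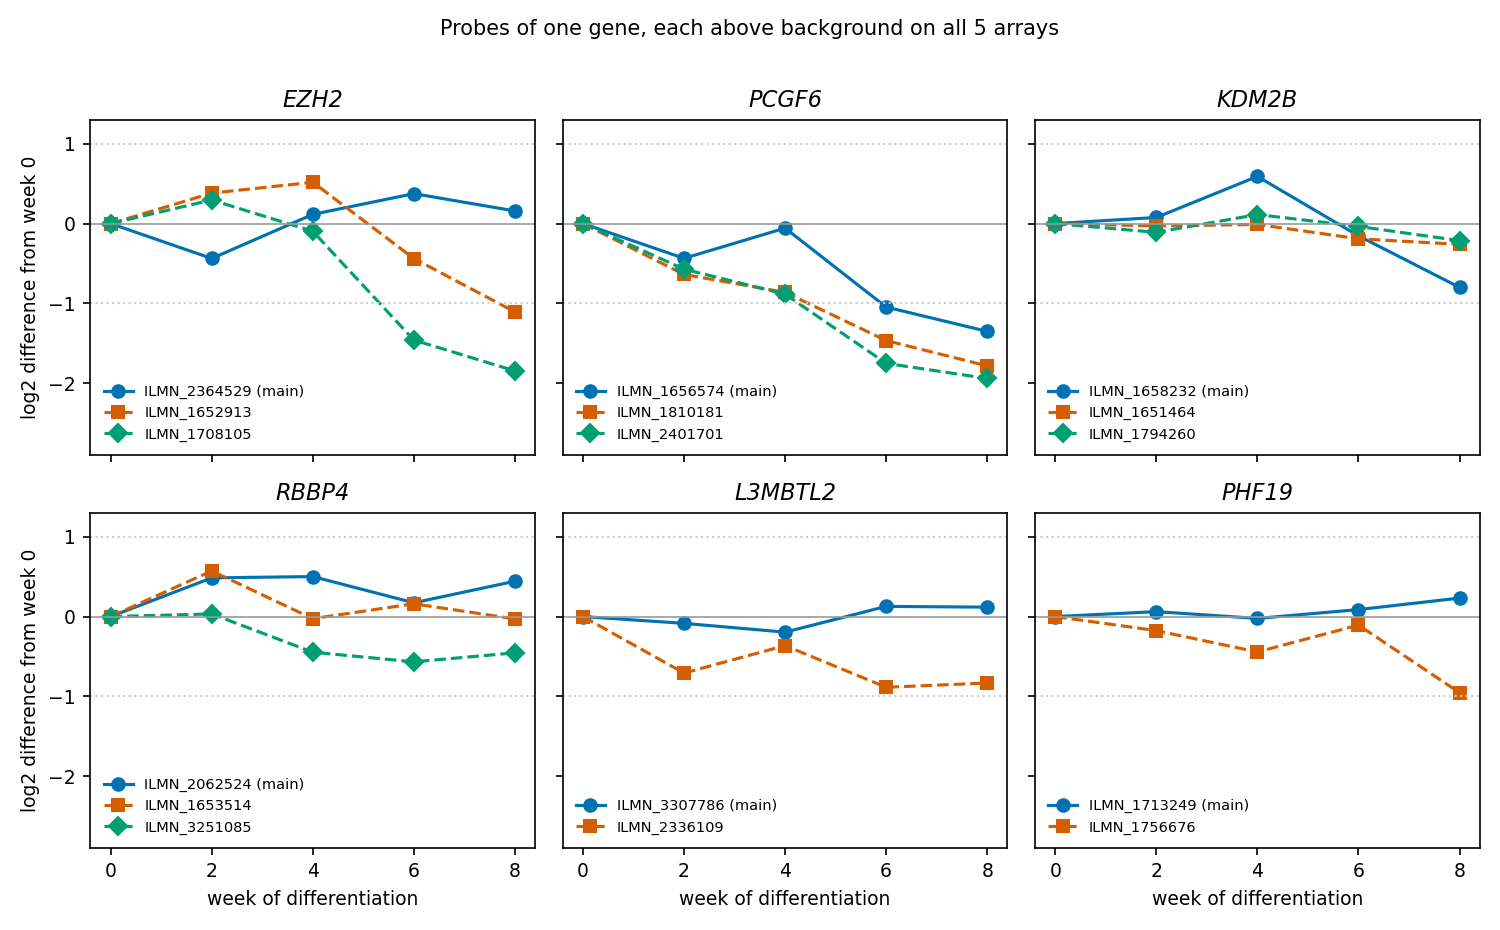
Log2 difference from week 0 (y axis) against week (x axis) for each probe above background on all 5 arrays, in 6 genes with several such probes; dotted lines mark 2-fold. The 3 probes of EZH2 spread from 0.16 to -1.85 at week 8, whereas the 3 probes of PCGF6 lie together between -1.35 and -1.94.

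The promoters of the members were then searched for 4 forms of the E2F motif (TTTCCCGC, TTTCGCGC, TTTGCCGC and TTTGGCGC) on both strands, in the 250 bases before and 50 bases after each RefSeq start. Sites on opposite strands may overlap in this search. A promoter was at hand for 32 of the 35 members, and 5 of these, or 15.6%, held a motif, each 1 time. All 5 belonged to PRC2, out of 11 PRC2 genes with a promoter, and none of the other 21 members held one. Among the promoters of all measured genes the share was 5.15% and among all promoters 3.33%. Base composition differed too, with a median GC content of 69.2% in the members and 64.7% in the measured genes. The stretches of 60 bases that hold the motif are shown with the motif in capitals, read 5′ to 3′ along the gene, so that a site on the opposite strand appears as its reverse complement. They lie, on GRCh38.p14, at chr7:148884257-148884316 on the minus strand for EZH2, chr17:42745122-42745181 on the minus strand for EZH1, chr1:93079262-93079321 on the plus strand for MTF2, chr17:31936792-31936851 on the plus strand for SUZ12 and chr12:19440423-19440482 on the plus strand for AEBP2.
EZH2: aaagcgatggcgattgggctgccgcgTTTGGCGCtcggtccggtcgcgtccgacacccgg
EZH1: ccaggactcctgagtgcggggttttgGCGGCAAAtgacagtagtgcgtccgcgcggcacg
MTF2: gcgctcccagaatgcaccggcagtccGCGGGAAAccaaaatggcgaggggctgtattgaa
SUZ12: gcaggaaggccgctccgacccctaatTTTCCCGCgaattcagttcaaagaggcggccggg
AEBP2: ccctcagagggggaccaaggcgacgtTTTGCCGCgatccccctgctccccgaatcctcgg

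The motif began 1 base after the start of EZH2 and 5 bases after that of MTF2, and 115, 189 and 150 bases before the starts of EZH1, SUZ12 and AEBP2. The genes that hold it did not move alike: at week 8 the main-probe differences were -2.04 for EZH1, -1.16 for MTF2, -0.23 for AEBP2, 0.16 for EZH2 and 0.26 for SUZ12. A match of these letters describes the sequence and is not a shown binding site.

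The scaffold subunits of PRC2 were not called at any week. SUZ12, which holds the complex together, had differences between 0.13 and 0.50. EED, which reads the methyl mark and stimulates the enzyme, differed by -0.06 to 0.03, but its probe ranked between 1 and 4 from the brightest of 47317 probes on every array. Quantile normalization fixes the level of such a rank, so a rise of EED could not have been seen. RefSeq also lists 2 pseudogenes of SUZ12 and 1 of EED, which the single probe of each gene was not checked against. Of the histone-binding subunits, RBBP4 lay between 0.17 and 0.50 and RBBP7 between -0.92 and -0.31. RBBP4 has 7 named pseudogenes in RefSeq, and its further probes read -0.03 and -0.45 at week 8 against 0.44 on the main probe.

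Among the accessory subunits, which steer PRC2 to its sites, JARID2 and MTF2 were called. JARID2, which brings PRC2 to its targets in stem cells, had levels of 7.98, 6.87, 7.42, 8.92 and 8.93. It was 2.15-fold lower at week 2 and then turned, to 0.95 and 0.96 above week 0 at weeks 6 and 8, just short of a call. The week 2 call was lost without background correction, with an offset of 50 or on the authors' processed values. MTF2, a Polycomb-like protein that binds CpG-rich DNA, had levels of 10.94, 10.34, 10.34, 10.29 and 9.78. It was lower at every later week and 2.24-fold lower at week 8. PHF1, a related Polycomb-like protein, was between 0.48 and 0.94 above week 0, AEBP2 was between 0.15 and 0.62 below, and PHF19 differed by -0.02 to 0.23. A further PHF1 probe, ILMN_1752877, differed by 1.04 at week 2 and 0.62 at week 8. A further PHF19 probe, ILMN_1756676, differed by -0.95 at week 8.

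In the catalytic core of PRC1, the PCGF proteins parted. BMI1, the PCGF subunit of canonical PRC1 known for holding down the CDKN2A locus in stem cells of adult tissues, had levels of 7.71, 10.03, 10.42, 10.05 and 10.07. It was 5.01-fold higher at week 2 and stayed near that level, at 6.53-fold, 5.08-fold and 5.13-fold at weeks 4, 6 and 8. RefSeq also lists a readthrough gene, COMMD3-BMI1, and a pseudogene, which the probe was not checked against. PCGF6, a subunit of a variant PRC1 of embryonic stem cells, went the other way and later, with levels of 9.62, 9.18, 9.56, 8.57 and 8.27. It was 2.07-fold lower at week 6 and 2.55-fold lower at week 8, and its other probes gave -1.78 and -1.94 at week 8. The week 6 call of PCGF6 was lost without background correction (-0.85), with an offset of 50 (-0.98) and on the authors' values (-0.88). RING1, a ubiquitin ligase of the complex, had levels of 10.52, 10.93, 11.83, 11.45 and 11.12, with a 2.47-fold peak at week 4 that was 0.88 on the log2 scale with scaling to the 75th percentile. PCGF2, which can take the place of BMI1, was between 0.41 and 0.78 above week 0 and was not called. PCGF1 lay between -0.13 and 0.52 and PCGF3 between -0.22 and 0.34, and PCGF5 was above background at week 6 alone, with a level of 5.72.

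Of the 7 measured canonical subunits of PRC1, CBX6 was called higher at week 8, CBX2 and PHC1 were called lower, and the other 4 were not called. The shares were 14.3% and 28.6%, beside 16.8% and 15.4% of all measured genes, and 7 genes are too few for a contrast. CBX proteins bind the methyl mark of PRC2 through their chromodomain. CBX2 had levels of 11.34, 11.50, 11.49, 10.29 and 9.66. It was flat to week 4, and 2.07-fold and 3.21-fold lower at weeks 6 and 8. CBX6 had levels of 9.29, 8.81, 9.75, 10.63 and 10.83, and was 2.54-fold and 2.91-fold higher at weeks 6 and 8. The pair thus moved in opposite directions between weeks 4 and 6. The week 6 calls were borderline, since that of CBX2 was lost without background correction (-0.98) and on the mean of its probes (-0.75), and that of CBX6 with scaling to the 75th percentile (0.94). CBX7, the CBX protein known to dominate in embryonic stem cells, had levels of 6.96, 6.06, 5.53, 6.31 and 6.97. It was below background at week 4, at least 2.58-fold lower than week 0, and back at 0.01 at week 8. That call was lost without background correction, with an offset of 50 and on the authors' values.

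PHC proteins polymerise and link PRC1 complexes. PHC1 showed the largest decrease of the 32 genes, with levels of 10.76, 8.15, 8.38, 8.34 and 8.00. It was 6.09-fold lower at week 2 and stayed low, at 6.74-fold at week 8. RefSeq also lists a pseudogene of PHC1, which the probe was not checked against. PHC2 had levels of 5.96, 7.90, 7.85, 7.09 and 6.86, so that it was 3.83-fold higher at week 2 while PHC1 was lower, and at week 8 its difference was 0.91 and no longer a call. Its week 0 level was near the lowest counted as above background on that array (5.67), and its further probes were below background on all 5 arrays. PHC3 was above background at weeks 6 and 8 alone, with levels of 5.74 and 5.64. SCMH1, a further partner with the same type of polymerising domain, had levels of 8.19, 9.31, 9.30, 9.56 and 8.96 and was called higher at weeks 2, 4 and 6. A further SCMH1 probe, ILMN_2375557, was below background at weeks 0 and 8. Its differences at weeks 2, 4 and 6 were at least 0.63, 0.93 and 0.29, against 1.37 on the main probe at week 6. The calls of PHC2 at the 3 weeks and of SCMH1 at weeks 2 and 4 were lost without background correction and on the authors' values, and the week 6 call of SCMH1 was lost on the mean of its probes (0.87). The week 6 call of PHC2 was also lost with an offset of 50, and those of SCMH1 at weeks 2 and 4 on the mean of its probes and with scaling to the 75th percentile, respectively.

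PHC1 and BMI1 were the called PRC1 genes with the largest decrease and the largest measured increase at week 8, and their promoters are shown because they also differed in composition. The PHC1 promoter had a GC content of 37.0%, the lowest of the 32 members with a promoter, and 10 CpG pairs, and the BMI1 promoter 73.3% and 36. The highest GC content, 81.7%, was that of PCGF5. In the sequences, CpG pairs are in capitals. They lie on the plus strand of GRCh38.p14 at chr12:8913593-8913892 for PHC1 and chr10:22320849-22321148 for BMI1.
PHC1: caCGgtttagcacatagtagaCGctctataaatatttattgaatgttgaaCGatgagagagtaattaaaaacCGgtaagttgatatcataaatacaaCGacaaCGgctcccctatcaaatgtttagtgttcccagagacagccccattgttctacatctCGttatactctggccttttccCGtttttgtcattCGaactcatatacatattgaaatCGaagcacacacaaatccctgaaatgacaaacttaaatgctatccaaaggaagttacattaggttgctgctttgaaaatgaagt
BMI1: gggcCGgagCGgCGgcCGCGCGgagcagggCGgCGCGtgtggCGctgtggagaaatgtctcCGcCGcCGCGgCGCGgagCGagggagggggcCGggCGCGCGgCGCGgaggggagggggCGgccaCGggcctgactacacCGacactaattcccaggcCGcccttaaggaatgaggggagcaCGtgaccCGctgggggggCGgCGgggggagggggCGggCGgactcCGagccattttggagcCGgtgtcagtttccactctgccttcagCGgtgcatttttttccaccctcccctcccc

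Neither promoter held the E2F motif. RefSeq gives 1 start per gene in this table, and other starts were not examined.

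**Figure D4:**
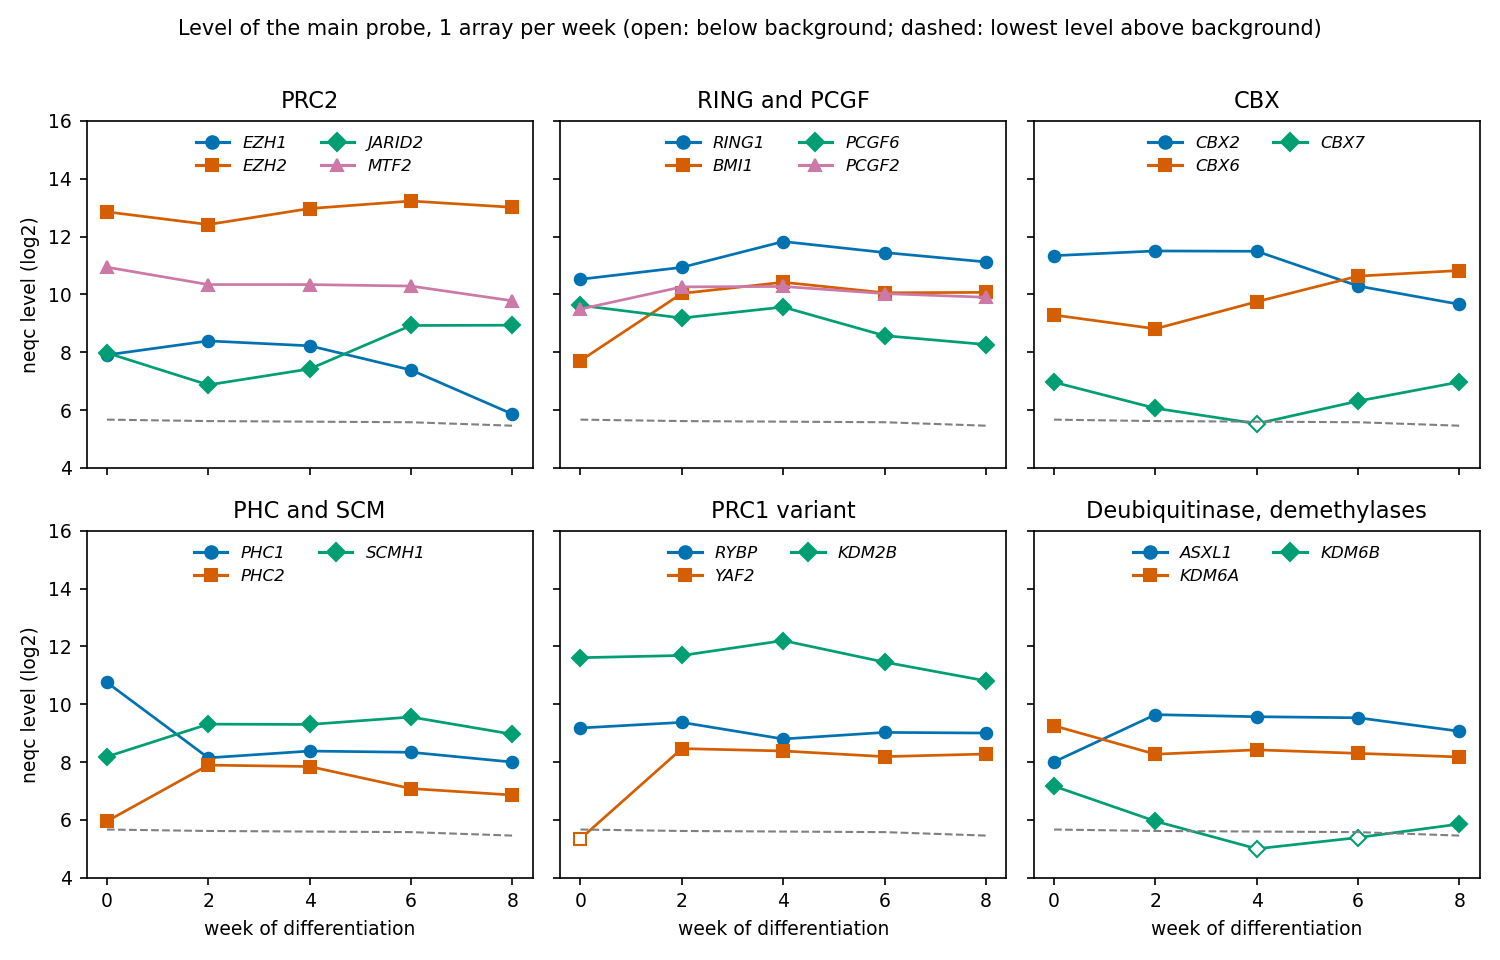
Level of the main probe on the log2 scale (y axis) against week of differentiation (x axis) for 20 genes in 6 groups, 1 array per point; open points are below background and the dashed line is the lowest level above background on each array. BMI1 and YAF2 step up and PHC1 steps down between weeks 0 and 2, CBX2 goes down and CBX6 up between weeks 4 and 6, and EZH1 is lowest at week 8.

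Of the subunits of variant PRC1, YAF2 was the called one. RYBP and YAF2 are paralogues that take the same place in the complex and stimulate its ligase. YAF2 was below background at week 0, with a level of 5.35, and had levels of 8.47, 8.38, 8.19 and 8.28 afterwards, which is at least 6.96-fold, 6.57-fold, 5.74-fold and 6.11-fold higher. These limits hold for the main processing alone. Under other settings the log2 differences were as low as 1.42, 1.36, 1.22 and 1.28 at weeks 2, 4, 6 and 8. RYBP had differences of 0.19, -0.38, -0.15 and -0.17. The step in YAF2 was therefore not shared by its paralogue. A further probe of YAF2 was below background on all 5 arrays. KDM2B, which brings a variant PRC1 to CpG islands, lay between -0.80 and 0.59 on its main probe, and its other probes gave -0.26 and -0.21 at week 8. L3MBTL2, part of the variant complex that also holds PCGF6, lay between -0.20 and 0.13, but a further probe, ILMN_2336109, gave -0.83 at week 8.

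The antagonists of the marks moved as well. ASXL1, the partner that activates the H2A deubiquitinase BAP1, had levels of 8.01, 9.64, 9.57, 9.53 and 9.07. It was 3.10-fold higher at week 2 and 2.08-fold higher at week 8, and the week 8 difference was 0.79 to 0.97 under the 4 settings that ended the call. KDM6A, a demethylase that removes the mark of PRC2, had levels of 9.26, 8.27, 8.43, 8.30 and 8.18. It was close to 2-fold lower from week 2 onward and passed 2-fold at week 8, at 2.11-fold. KDM6B, an inducible demethylase of the same mark, had levels of 7.17, 5.96, 5.004, 5.39 and 5.86, below background at weeks 4 and 6. It was 2.32-fold and 2.48-fold lower at weeks 2 and 8 and at least 2.98-fold and 3.01-fold lower at weeks 4 and 6. Both demethylases thus read lower than in the undifferentiated cells at every later week. All 4 calls of KDM6B and the week 8 call of KDM6A were lost without background correction and on the authors' values, with the same sign, and the week 8 calls of both and the week 2 call of KDM6B also with an offset of 50.

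The remaining genes known to work with Polycomb complexes were taken from a separate list of 39 genes. Of its 31 measured members at week 8, 4 were called higher, 5 lower and 22 neither, with a median of -0.02. These shares of 12.9% higher and 16.1% lower were close to the 16.8% and 15.4% of all measured genes. LCOR, whose locus also encodes a PRC2 partner, differed by 1.56, and SCML1, a relative of SCMH1, by 1.32. SCML2, another relative that binds PRC1, differed by -1.56, SFMBT1, a protein with methyl-lysine binding repeats, by -1.35, the casein kinase gene CSNK2A1 by -1.24 and the deubiquitinase gene USP7 by -1.12. EPOP, a PRC2 partner of embryonic stem cells named after its values were seen, had levels of 6.87, 9.50, 8.27, 6.77 and 6.48, highest at week 2 and below its starting level at weeks 6 and 8. With scaling to the 75th percentile 2 of the list were higher and 7 lower, with an offset of 50 the counts were 2 and 3, with each gene's probes averaged 2 and 6, and without background correction or on the authors' values 1 and 0. Of all measured genes 14.8% were higher and 20.5% lower with the 75th percentile scaling, and 9.71% and 7.65% without background correction.

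Genes that carry Polycomb marks in embryonic stem cells were read beside the complexes. Of 49 members of a list of such targets that had a named probe, 27 were measured at week 8. Of these, 15 (55.6%) were called higher and 1 (3.7%) lower, with a median of 1.60. Among all measured genes the shares were 16.8% and 15.4%. A target below background at week 0 was counted only where it was above background at week 8, and could not be called lower. The count and the median therefore lean toward higher by construction. The proneural factor gene NEUROG2 differed by 4.42, the patterning factor genes IRX2 and IRX1 by 3.48 and 1.74, the forebrain factor gene EMX2 by 1.60, and the eye-field factor gene LHX2 by at least 6.04. FOXA2, a factor of endoderm, differed by -3.20. CDKN2A and CDKN2B, cell cycle inhibitor genes that BMI1 is known to silence, were looked up after the values were seen: CDKN2A differed by 0.19 and CDKN2B was at least 9.70-fold higher at week 8. This list holds many lineage factors, was drawn up with earlier results of these data known, and counts only members above background at week 0 or week 8. Of the targets above background on all 5 arrays 4 were higher and none lower. The uncalled ones were GATA6, CDKN2A and EOMES, at -0.59, 0.19 and -0.97. Among all genes above background on all 5 arrays 14.6% were higher and 16.6% lower, and so few targets carry no contrast. On the authors' values none of the measured targets was lower, beside 7.67% of all measured genes. HOX genes, the classical targets, were mostly not measured: of 39 genes 29 had a named probe and 6 were measured at week 8. None of these 6 was called, beside 16.8% of all measured genes called higher and 15.4% lower. So few genes give no contrast with the other targets. Of the 6, 3 were above background at both weeks, HOXB5 with a difference of -0.47, HOXD13 with -0.26 and HOXC12 with -0.12. HOXB4 and HOXC6 were above background at week 0 alone and HOXB13 at week 8 alone. HOXB13 was the 1 HOX gene called at any week, at least 5.33-fold higher at week 2.

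**Figure D5:**
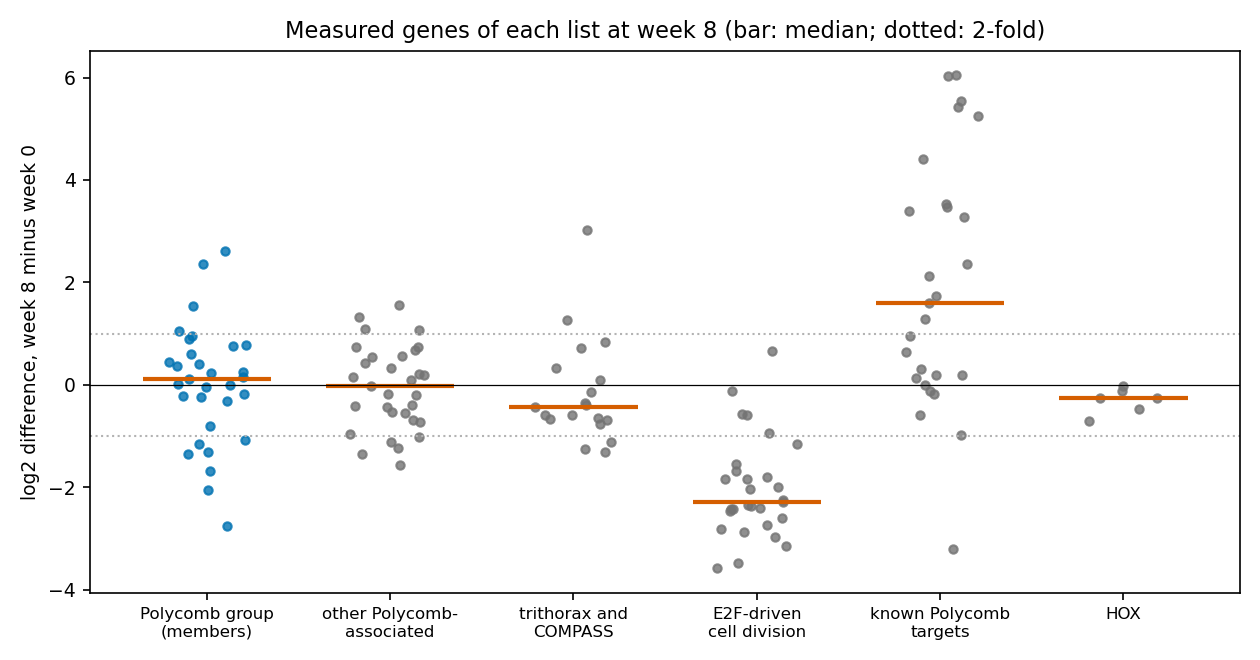
Log2 difference between week 8 and week 0 (y axis) for each measured gene of 6 lists (x axis), 1 point per gene, bounds included, with the median as a bar and dotted lines at 2-fold. The Polycomb members spread from -2.75 to 2.61 around a median of 0.12, the E2F-driven genes lie around -2.29 and the known targets around 1.60. Genes below background at both weeks are left out, so a target silent at week 0 appears only if it was above background at week 8.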

How the data were processed

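Each of the 5 arrays was an Illumina HT-12 bead array hybridised with biotin-labelled cRNA, per the labels' protocols. The deposited intensity is, per the file headers, each probe's mean bead signal, and its values lie on a linear scale without background subtraction. The deposited detection score, a fraction by its values, rises with the signal, and its distance from 1 was taken as the detection p-value. The authors' processed intensity, on a linear scale with medians of 133.1 or 133.2, served as an alternative. What software made either table is not stated in the labels.

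Signals were background corrected, quantile normalized and put on the log2 scale with neqc of limma 3.58.1 in R 4.3.3, with an offset of 16. Later steps used Python 3.11.15 and pandas 2.3.3. The platform annotation gave 1 symbol to 30110 of 47317 probes and several to 8, and the 17199 it does not list stayed without a name here. Entrez identifiers brought old symbols up to date. Each gene was represented by its probe of highest mean level. Where a gene was below background, the lowest above-background level of the array took its place unless its own level was higher, and a fold against it is written "at least". Between 16993 and 18358 probes were above background, with a median signal 2.62 to 2.90 times that of the rest. The number of arrays limits the precision. The steps were tested on simulated data.

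The members and lists were chosen with earlier results of these data known. Every member is named. Called members and EZH2 have their levels at each week, other members the range of their differences, and from each other list up to 6 called genes with the largest week 8 difference are named, measured values first. Promoters are from RefSeq. Those shown were narrowed after their content was seen, to the members with an E2F motif and to PHC1 and BMI1. No protein sequence was used here.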

Additional observations from a re-analysis of the deposited data

How the results depend on the processing

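Each week rests on a single array, so these settings show what the processing does and nothing about replicate error. No paired analysis was possible because each week has 1 sample. Of 38 calls of a member at a week, 19 held under each of the 8 alternatives that gave a value, and none changed sign. Some alternatives changed only the detection limit, the genes kept or the choice or averaging of probes. For a gene with 1 probe, above background on all 5 arrays, they return the main value and could not end a call. PHC1, BMI1 and YAF2 kept all their calls, and CBX2, CBX6, PCGF6 and MTF2 kept theirs at week 8. The count of lower members was the least stable. At weeks 2, 4, 6 and 8 it was 3, 3, 4 and 7, against 1, 1, 1 and 4 without background correction, 1, 1, 2 and 4 on the authors' processed values, and 5, 5, 7 and 8 with scaling to the 75th percentile. With an offset of 50 it was 1 at week 2, and with genes above background on all 5 arrays it was 1 at week 4. Of all measured genes 15.4% were called lower at week 8. That share was 7.65% without background correction, 7.67% on the authors' values and 20.5% with scaling to the 75th percentile. It thus moved in the same direction as the member count, and the instability was not particular to the members. The count of higher members at week 2 was 5, and 3 without background correction or on the authors' values. The shares of all measured genes called higher at week 2 were 10.7%, 5.15% and 5.54% in the same order. Leaving background in shrinks differences of dim probes by construction.

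The member medians were small and changed sign. With scaling to the 75th percentile they were -0.091, -0.050, -0.093 and -0.084 at weeks 2, 4, 6 and 8. That scaling moved the median of all measured genes to -0.11, -0.19, -0.19 and -0.21, so relative to all genes the members were 0.02, 0.14, 0.10 and 0.12 higher, beside 0.11, 0.26, 0.11 and 0.17 with quantile normalization. On the mean of a gene's probes the medians were -0.044 at week 6 and -0.034 at week 8. With the probe above background on most arrays they were 0.089 at week 4 and -0.030 at week 8, and on the authors' values 0.11 at week 4. With the same 75th percentile scaling, higher genes made up 41.9% of all calls at week 8 in place of 52.1%. Apart from the construction named above, the cause of these shifts was not tested.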

Other observations

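Trithorax and COMPASS genes, whose products oppose Polycomb silencing by methylating lysine 4 of histone H3 or by remodelling nucleosomes, were read on the same arrays. Of 19 measured genes of that list at week 8, 2 were called higher and 3 lower, with a median of -0.43. The shares were 10.5% and 15.8%, beside 16.8% and 15.4% of all measured genes. SMARCA2, an ATPase of the BAF remodelling complex, had levels of 8.03, 8.03, 9.32, 10.83 and 11.05 at weeks 0, 2, 4, 6 and 8, a difference of 3.01 at week 8. Its paralogue SMARCA4 had levels of 11.32, 11.44, 11.59, 11.05 and 10.89, a difference of -0.43. NCOA6, a subunit of COMPASS-like complexes, differed by 1.27, PAXIP1, another such subunit, by -1.31, the core subunit gene RBBP5 by -1.11, and the methyltransferase gene KMT2A was at least 2.38-fold lower. With scaling to the 75th percentile 2 of the list were higher and 7 lower, and without background correction, with an offset of 50 or on the authors' values 2 were higher and 1 lower. Of all measured genes 14.8% were higher and 20.5% lower with the 75th percentile scaling, and 9.71% and 7.65% without background correction.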
